A study of Mus musculus with 6 samples.

Results

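The genes described here encode 4 families of splicing factors and RNA-binding proteins: the SR proteins (Srsf), the subunits of the SF3A and SF3B complexes (Sf3a and Sf3b), the proteins of the small nuclear ribonucleoproteins (Snrp) and the heterogeneous nuclear ribonucleoproteins (Hnrnp). Each gene entered by its symbol, as every array feature that carries exactly 1 gene symbol of these families. The families were chosen with earlier results of these data known. Each gene was read by its brightest feature over the 6 samples. This gave 46 genes of the 19938 tested, of which 10 are Srsf, 9 are Sf3a or Sf3b, 10 are Snrp and 17 are Hnrnp genes. A further 6 family symbols stand only on features that carry several symbols and were not analysed here.

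The samples were sorted cells of the calvarial suture mesenchyme, the connective tissue between the skull bones, from mice at postnatal day 28. All animals carried both the Axin2rtTA transgene, in which Axin2 control drives a doxycycline-dependent activator, and the TRE-H2BGFP transgene, a histone-GFP fusion that this activator switches on, on a mixed background of C57BL/6J, CD-1 and B6CBAF2. All received doxycycline between postnatal day 25 and day 28, and collagenase-freed cells were sorted into the groups by GFP intensity. The groups also differed in markers of blood cells, as given below. Each of the 3 Axin2+/GFP+ and 3 Axin2-/GFP- samples pooled cells of 6 to 8 mice and was hybridised to 1 array, and a transgene reports Axin2 activity only over the days of doxycycline, with a stable histone fusion that outlasts it. Axin2 itself, the Wnt target that names the sort, had a log2 value of 2.83 ± 0.27 in Axin2+/GFP+ and 2.28 ± 0.10 in Axin2-/GFP- samples (SD, n = 3 each), a log2 change of 0.55 with a limma adjusted p = 0.0802, and its samples did not overlap. Among 11 measured markers of suture and skeletal mesenchyme the collagen genes Col1a1, Col1a2 and Col3a1 were higher in Axin2+/GFP+ cells and 8 were not called. Limma called 4.64% of all genes higher. At the brightness of these collagens it called more, 12.0% of other genes at a mean log2 value of 7 to under 9 and 18.0% at 9 or more. Summed on the linear scale, the 11 markers gave 2613 to 3729 in Axin2+/GFP+ and 804 to 1184 in Axin2-/GFP- samples.

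Splicing removes introns from pre-mRNA. Small nuclear ribonucleoproteins, each a small RNA wrapped by a ring of Sm proteins plus proteins of its own, recognise the splice sites and form the spliceosome. SF3A and SF3B are parts of the U2 particle and hold it on the branch site. SR proteins bind exonic enhancers and recruit the machinery, whereas hnRNP proteins coat nascent transcripts and often repress nearby splice sites, and the balance between them sets which exons are kept. These genes are expressed in practically every cell type and are abundant in growing and dividing cells.

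Splicing factor genes were lower in Axin2+/GFP+ than in Axin2-/GFP- cells. Of the 46 genes, 25 passed an adjusted p of 0.05 as lower and 0 as higher (limma, Benjamini-Hochberg over all 19938 genes), or 54.3%, where 11.4% of all genes were called lower and 4.64% higher. At an unadjusted p under 0.05, limma put 34 lower and 1 higher, against 17.6% and 16.3% of all genes. The median log2 change over the 46 genes was -1.01, a 2.02-fold lower signal, and that over all genes was 0.14. The sign was negative for 41 of the 46. In 32 genes every Axin2+/GFP+ sample lay below every Axin2-/GFP- sample, in 2 every one lay above, and in 12 the groups overlapped, where 17.8% of all genes separated downward and 23.1% upward. The count of lower members was 16 without Axin2-/GFP- replicate 1 or replicate 3, and the share of all genes called lower fell with it, to 6.9% and 7.04%. After quantile normalization, which gives all arrays the same distribution, the split was 11 lower and 2 higher against 5.84% and 4.33% of all genes, and cyclic loess gave 9 lower and 2 higher against 6.89% and 4.52%.

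**Figure D1:**
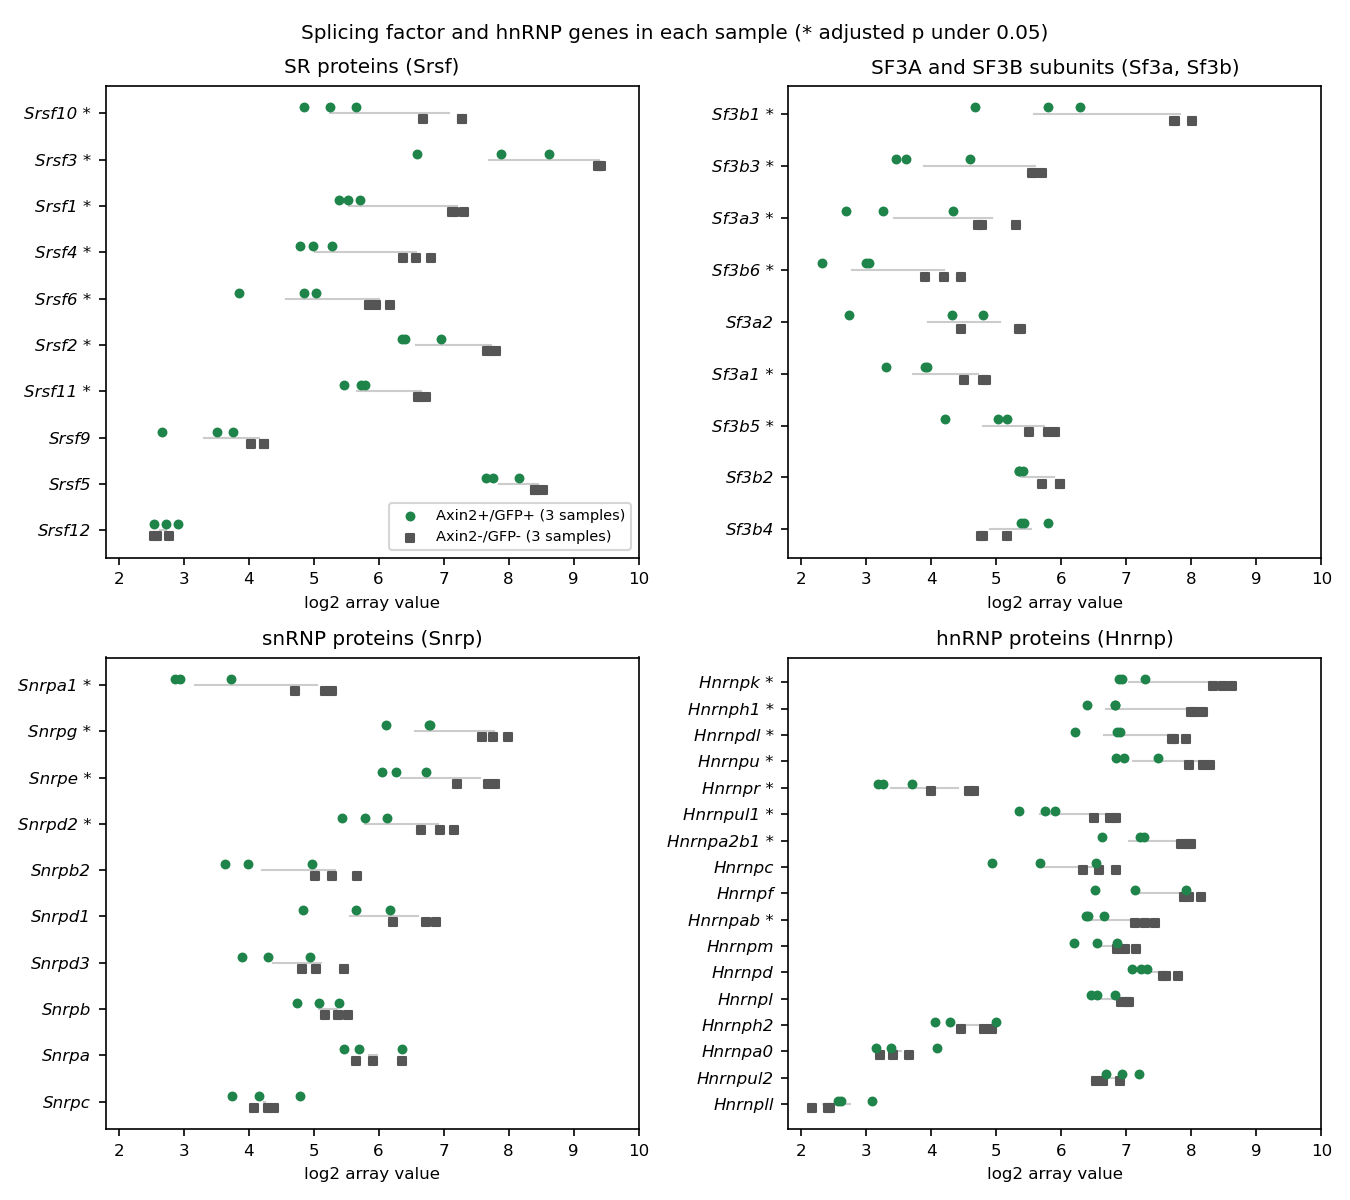
Log2 array value (horizontal axes) of each of the 46 genes (rows) in the 3 Axin2+/GFP+ samples (green circles) and the 3 Axin2-/GFP- samples (grey squares), by family, with a grey line between the group means and an asterisk on the 25 genes with an adjusted p under 0.05. Green circles lie to the left of grey squares in 32 genes, and to the right of them in Sf3b4 and Hnrnpll only.

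Blood cell markers also differed between the populations. Every one of the 14 B lineage markers measured was lower in the Axin2+/GFP+ population, with a median log2 change of -4.73. Their summed signal, the sum of the values on the linear scale, was 110 to 115 in Axin2+/GFP+ and 2190 to 2961 in Axin2-/GFP- samples, and the defining markers Ebf1 and Cd79a had mean log2 values of 1.99 and 2.27 in Axin2+/GFP+ against 7.72 and 7.09 in Axin2-/GFP- samples. Of 15 neutrophil lineage markers 14 were higher, with a median of 2.58 and a summed signal of 20515 to 22784 against 2871 to 9109. Of 11 cell division markers 3 were lower (Pcna, Mcm6 and Mcm7), 0 were higher and 8, among them Mki67, were not called. Their median change was -0.80, with a summed signal of 405 to 602 against 817 to 975. The median of their mean log2 values was 4.89. Of other genes 20.6% were lower at a mean of 3 to under 5 and 35.8% at 5 to under 7, beside 11.4% of all genes. The other lists showed fewer calls: 2 of 11 macrophage and monocyte markers and 1 of 8 endothelial markers were lower, 1 of 9 erythroid markers was lower and 1 higher, and 0 of 8 T cell markers were called by limma, with or without adjustment. The part of these cells in the splicing factor values was not tested, and in sorted bulk samples fewer cells of a type and less RNA per cell cannot be told apart.

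Among the 10 SR protein genes, 7 were lower and 3 were not called, with a median log2 change of -1.29. Srsf1, the founding member of the family, had log2 values of 5.39, 5.52 and 5.72 in Axin2+/GFP+ samples and 7.16, 7.13 and 7.32 in Axin2-/GFP- samples. The groups lay far apart relative to their spread, with a 3.16-fold lower signal and a log2 change of -1.66 (SE 0.17, limma adjusted p = 0.000663). Srsf10, which represses splicing when it loses its phosphates, had log2 values of 4.86, 5.65 and 5.25 against 7.28, 6.68 and 7.28. Its log2 change of -1.83 was the most negative of the family (SE 0.26, adjusted p = 0.00266). A dimmer Srsf10 feature, at a mean log2 value of 3.79, changed by -2.07. Srsf4, a long SR protein, had log2 values of 5.29, 4.78 and 4.99 against 6.58, 6.37 and 6.80, a log2 change of -1.56 (SE 0.20, adjusted p = 0.00174). All Axin2+/GFP+ samples were below all Axin2-/GFP- samples in these genes.

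Srsf3, a small SR protein that also serves mRNA export, had the highest mean array signal of the 46 genes on the feature read, 8.55. Its other features, at mean log2 values of 7.84 and 2.88, changed by -1.46 and -1.58. On the feature read the log2 values were 8.62, 7.88 and 6.59 in Axin2+/GFP+ samples and 9.42, 9.40 and 9.37 in Axin2-/GFP- samples. The Axin2-/GFP- samples agreed within 0.02 (SD) while the Axin2+/GFP+ samples had an SD of 1.02, so that the log2 change of -1.70 carried a SE of 0.43 and an adjusted p = 0.0304 (limma), and the p was 0.0551 without Axin2+/GFP+ replicate 2 and 0.0844 to 0.0930 without any 1 Axin2-/GFP- sample. Srsf2, the marker protein of nuclear speckles, had log2 values of 6.36, 6.95 and 6.41 against 7.80, 7.67 and 7.73, a log2 change of -1.16 (adjusted p = 0.00664). Srsf11 changed by -0.99 on the log2 scale (adjusted p = 0.00612). Srsf6 changed by -1.42 (adjusted p = 0.0151), with a p of 0.0632 without Axin2-/GFP- replicate 1 and 0.0514 without replicate 2.

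Of the SR genes that were not called, Srsf5 and Srsf9, named here after their values were seen, still had every Axin2+/GFP+ sample below every Axin2-/GFP- sample. The log2 change was -0.59 for Srsf5 (adjusted p = 0.0634) and -0.85 for Srsf9 (adjusted p = 0.0679), and without Axin2+/GFP+ replicate 2 these adjusted p were 0.0335 and 0.0380. Leaving out any other sample gave no call for either gene (limma adjusted p 0.125 to 0.174 for Srsf5). The Srsf5 change was -0.31 under quantile normalization and 0.06 under cyclic loess. Srsf12 was nearest to 0 and at low signal, with log2 values of 2.54, 2.74 and 2.91 against 2.58, 2.77 and 2.54. Its groups overlapped, and the log2 change was 0.10 (limma adjusted p = 0.702), which turned to -0.01, -0.04 and -0.09 under median centring, quantile normalization and cyclic loess.

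Of the 9 SF3A and SF3B genes, 6 were lower and 3 were not called, and the median log2 change was -1.11. Sf3b1, the large scaffold subunit that clamps the branch site and is often mutated in blood cancers, had log2 values of 6.28, 4.68 and 5.80 in Axin2+/GFP+ and 8.01, 7.76 and 7.73 in Axin2-/GFP- samples. It had the most negative change of all 46 genes, a 4.75-fold lower signal or a log2 change of -2.25 (SE 0.36, limma adjusted p = 0.00483). Sf3b3, a propeller-shaped partner of Sf3b1, had log2 values of 3.61, 3.46 and 4.6 against 5.56, 5.55 and 5.70, a log2 change of -1.71 (SE 0.29, adjusted p = 0.00573). Sf3b6, the subunit that contacts the branch point adenosine, had log2 values of 3.04, 2.32 and 2.99 against 4.19, 4.46 and 3.91, a log2 change of -1.41 (SE 0.24, adjusted p = 0.00671). In these 3 genes the spread among Axin2+/GFP+ samples was wider than among Axin2-/GFP- samples, and no sample crossed over.

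The remaining SF3 calls were nearer to the threshold. Sf3a3, which ties SF3A to the U2 particle, had a log2 change of -1.51 (limma adjusted p = 0.0304) from values of 4.33, 2.69 and 3.25 against 4.72, 5.30 and 4.78. Sf3a1 changed by -1.0 (adjusted p = 0.0177) and the small subunit gene Sf3b5 by -0.94 (adjusted p = 0.0463). Sf3a3 lost its call when any sample but Axin2+/GFP+ replicate 1 was left out (adjusted p 0.0651 to 0.106), Sf3b5 when any but Axin2+/GFP+ replicate 3 was (0.0588 to 0.140), and Sf3a1 without Axin2-/GFP- replicate 2 (0.0702) or replicate 3 (0.0681). The count of lower Sf3 genes was 3 without either of these Axin2-/GFP- replicates.

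Sf3b4, which binds pre-mRNA upstream of the branch site and is named here after its values were seen, went the other way. Its log2 values were 5.38, 5.43 and 5.79 in Axin2+/GFP+ and 4.76, 5.16 and 4.79 in Axin2-/GFP- samples. The groups did not overlap, with a log2 change of 0.63 (SE 0.20, limma adjusted p = 0.0622), which was 1.17 after quantile normalization (adjusted p = 0.0105) and 1.18 after cyclic loess (adjusted p = 0.00716). A dimmer feature that carries the same symbol, with a mean log2 value of 4.01 against 5.22, changed by -1.53, and the mean of both features by -0.45. It was the only one of the 10 members with several features whose features differed in sign, and which of them reads the Sf3b4 transcript was not tested. Sf3b2 was the SF3 gene nearest to 0, with values of 5.35, 5.35 and 5.42 against 5.98, 5.71 and 5.98 and a log2 change of -0.52 (adjusted p = 0.0659). It turned to 0.05 under quantile normalization and 0.07 under cyclic loess.

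Of the 10 snRNP genes, 4 were lower (40%) and 6 were not called. Among other genes of like mean signal a similar share, 33%, was lower. All 10 changes were negative, with a median log2 change of -1.09. Snrpa1, a protein of the U2 particle, had log2 values of 3.73, 2.94 and 2.86 in Axin2+/GFP+ and 4.71, 5.18 and 5.28 in Axin2-/GFP- samples. This was a 3.67-fold lower signal, with a log2 change of -1.88 (SE 0.27, limma adjusted p = 0.00302) and no overlap. Its partner in that particle, Snrpb2, had values of 3.64, 4.98 and 4.0 against 5.28, 5.03 and 5.67, a log2 change of -1.12 with adjusted p = 0.0542, or 0.00850 without Axin2+/GFP+ replicate 2. Snrpb2 was not called when any other sample was left out.

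Genes for the Sm ring, which the U1, U2, U4 and U5 particles share, were split. Snrpg had log2 values of 6.80, 6.77 and 6.12 against 8.00, 7.59 and 7.75, a log2 change of -1.22 (limma adjusted p = 0.00940). Snrpe changed by -1.21 (adjusted p = 0.0114) and Snrpd2 by -1.13 (adjusted p = 0.0123), and without Axin2-/GFP- replicate 1 their adjusted p were 0.0503 and 0.0547, which left 2 of the 10 snRNP genes called. Snrpd1 had a change of a like size, -1.05, with a wider spread, from values of 6.18, 4.84 and 5.65 against 6.88, 6.22 and 6.73, and was not called (adjusted p = 0.0642, or 0.0251 without Axin2+/GFP+ replicate 1). Leaving out any other sample gave no call for Snrpd1. Snrpb, from which the core ring proteins B and B′ are made, overlapped between groups, with values of 5.09, 5.39 and 4.75 against 5.53, 5.38 and 5.17 and a log2 change of -0.28 (adjusted p = 0.354). It turned to 0.28 after quantile normalization and 0.27 after cyclic loess. Snrpd3, named here after its values were seen, also overlapped, with a log2 change of -0.73 (limma adjusted p = 0.116). The Snrpd2 feature read had the most negative change of that gene's features. Its others, at mean log2 values of 6.31, 5.29, 4.79 and 4.61, changed by -0.98, -0.95, -0.47 and -0.43. A dimmer Snrpg feature, at 4.73, changed by -1.98.

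Both U1-specific genes with an Snrp symbol lay near 0. A further U1-specific gene, Snrnp70, falls in the U1-linked list and is named here after its values were seen: it had log2 values of 6.07, 6.64 and 6.40 against 7.19, 7.25 and 7.56 and was lower, with a log2 change of -0.96 (limma adjusted p = 0.0157, or 0.0666 without Axin2-/GFP- replicate 3 and 0.402 under cyclic loess). Snrpc, a U1 protein that helps to pair the particle with the splice donor, had log2 values of 3.74, 4.17 and 4.79 against 4.38, 4.09 and 4.29. The Axin2+/GFP+ samples reached both below and above the other group, and the log2 change was -0.02 (SE 0.26, limma adjusted p = 0.960), which became 0.39 and 0.36 after quantile normalization and cyclic loess. Snrpa, which binds a stem-loop of the U1 RNA and is named here after its values were seen, changed by -0.13 (adjusted p = 0.754), or by 0.42 and 0.47 under the same scalings.

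Of the 17 hnRNP genes, 8 were lower and 9 were not called, and the median log2 change of -0.81 was the least negative of the 4 families, and it was -0.48 without Axin2+/GFP+ replicate 1. Hnrnpk, which binds runs of cytosine in RNA and DNA, had log2 values of 6.94, 7.29 and 6.89 in Axin2+/GFP+ and 8.63, 8.49 and 8.34 in Axin2-/GFP- samples. Its log2 change was -1.45 (SE 0.18, limma adjusted p = 0.00164), and its other features, at mean values of 7.08 and 6.49, changed by -1.52 and -1.59. Hnrnph1, which binds runs of guanine, had values of 6.82, 6.83 and 6.39 against 8.05, 7.99 and 8.17, a log2 change of -1.39 (SE 0.19, adjusted p = 0.00204). Hnrnpdl had values of 6.21, 6.85 and 6.90 against 7.91, 7.73 and 7.70, a log2 change of -1.13 (adjusted p = 0.0110). These 3 were below in every Axin2+/GFP+ sample and were called lower whichever sample was left out.

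The other hnRNP calls depended on single samples. Hnrnpu, a scaffold protein that binds chromatin and RNA, had values of 6.96, 7.48 and 6.84 against 8.18, 7.97 and 8.28, a log2 change of -1.04 (limma adjusted p = 0.0132). Hnrnpa2b1, which also sorts RNA into vesicles and dendrites, had values of 7.20, 6.63 and 7.28 against 8.00, 7.84 and 7.94, a log2 change of -0.89 (adjusted p = 0.0232). Hnrnpul1 changed by -1.03 (adjusted p = 0.0113), Hnrnpab by -0.81 (adjusted p = 0.0168) and Hnrnpr, named here after its values were seen, by -1.03 (adjusted p = 0.0211). Without Axin2-/GFP- replicate 3 these 5 genes had adjusted p of 0.0502 to 0.0806, which left 3 of the 17 hnRNP genes called, and without Axin2-/GFP- replicate 1 the values for Hnrnpu, Hnrnpa2b1 and Hnrnpab were 0.0528, 0.0835 and 0.0713 and 5 genes were called. Hnrnpa2b1 and Hnrnpr also lost their calls without Axin2-/GFP- replicate 2 (0.0637 and 0.0822), and Hnrnpr without Axin2+/GFP+ replicate 1 (0.0535) or replicate 3 (0.0527).

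The 9 hnRNP genes that were not called differed in the size of their change. Hnrnpl, which binds CA-rich RNA, had values of 6.54, 6.46 and 6.82 against 6.91, 7.02 and 7.04 and a log2 change of -0.38 (limma adjusted p = 0.157), and it turned to 0.09 after quantile normalization and 0.26 after cyclic loess. Its relative Hnrnpll, a regulator of CD45 exons in lymphocytes, was at low signal, with values of 2.56, 3.09 and 2.60 against 2.41, 2.44 and 2.16. The Axin2+/GFP+ samples were all above, yet the log2 change of 0.42 was not called (adjusted p = 0.181). Hnrnpa0 was nearest to 0, with values of 3.14, 3.38 and 4.08 against 3.2, 3.40 and 3.66, a log2 change of 0.11 (adjusted p = 0.772) that became -0.16 without Axin2+/GFP+ replicate 3. Hnrnpul2, named here after its values were seen, had overlapping values of 6.93, 7.20 and 6.69 against 6.90, 6.63 and 6.54, a log2 change of 0.25 (adjusted p = 0.386), which was 0.72 after quantile normalization (adjusted p = 0.0463) and 0.89 after cyclic loess (adjusted p = 0.0224). The 5 remaining hnRNP genes had changes between -0.87 (Hnrnpc) and -0.28 (Hnrnph2). Among them Hnrnpf, named here after its values were seen, changed by -0.81 on the feature read. Its other features changed by -0.93, -0.94 and -1.15, and limma called it lower over the mean of its features.

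Because the change between the populations ran with signal, the genes were read against genes of like brightness. Other genes whose mean was under 3 on the log2 scale showed a median change of 0.25 and were lower in 1.51% of cases, whereas those from 5 to under 7 had a median of -0.57 and were lower in 35.8%. In that range 11 of 20 members were lower, with a median of -0.96. From 7 to under 9, 8 of 11 members were lower (median -1.13) beside 32.6% of 184 other genes (median -0.50), and from 3 to under 5, 6 of 13 members (median -1.03) beside 20.6% of other genes (median -0.19). Against the 200 other genes nearest to it in mean signal, a member's log2 change was lower than their median in 34 of 46 cases, with a median difference of -0.47. On average 29.3% of these neighbours were called lower, against 54.3% of the members.

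This difference from genes of like signal varied by family, and it is given as a description. It was below 0 in all 10 SR genes, with a median of -0.78, in 7 of 9 SF3 genes (median -0.61), in 7 of 10 snRNP genes (median -0.47) and in 10 of 17 hnRNP genes (median -0.30). The share of members called lower was 70% for SR, 66.7% for SF3, 40% for snRNP and 47.1% for hnRNP genes. Among their neighbours of like signal it averaged 30%, 31.8%, 33% and 25.2%, in the same order. Single values ran from -1.72 for Sf3b1 and -1.49 for Snrpa1 through -1.18 for Srsf3, the brightest member, to 0.76 for Hnrnpul2 and 1.19 for Sf3b4. Over the 46 genes the median of this difference was -0.54 under quantile normalization and -0.47 under cyclic loess.

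**Figure D2:**
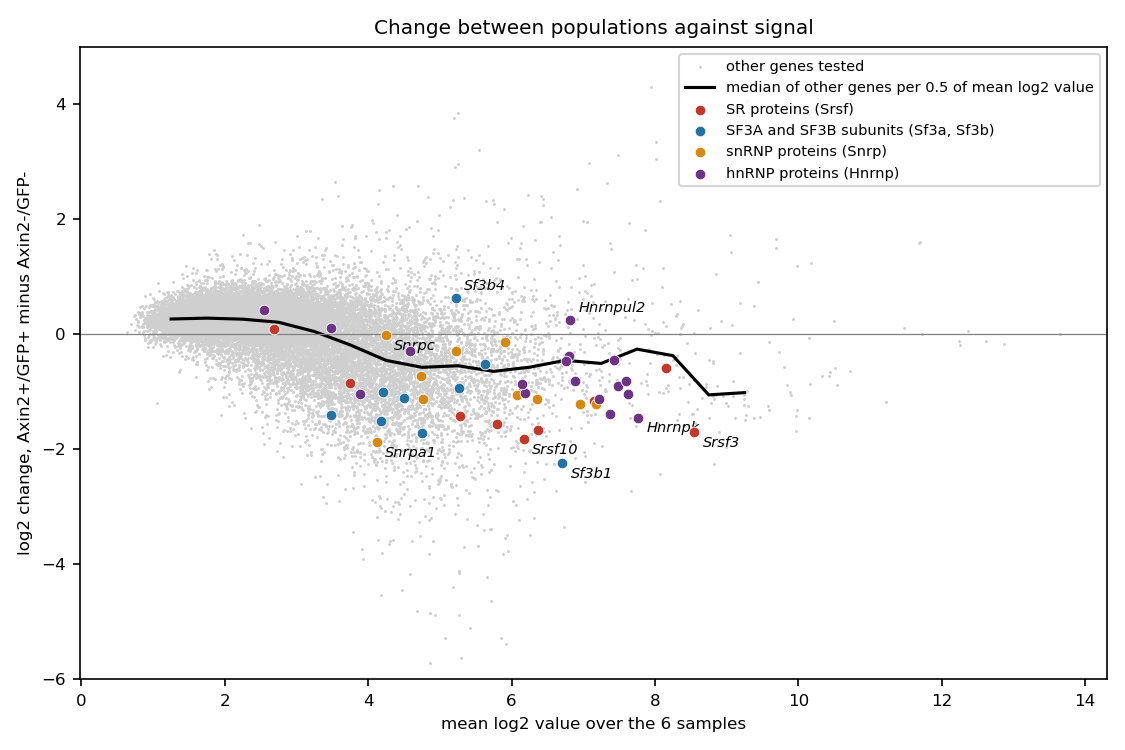
Log2 change, Axin2+/GFP+ minus Axin2-/GFP- (vertical axis), against the mean log2 value over the 6 samples (horizontal axis) for the genes tested (grey), with the 46 splicing factor and hnRNP genes coloured by family and a black line for the median of the other genes in steps of 0.5. The line falls from above 0 for dim genes to below 0 for bright ones, and 34 of the 46 coloured points lie below the median of their 200 nearest genes.

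Under the scalings that bring the arrays to a common distribution or trend the changes became smaller in every family. The median log2 change over the 46 genes was -0.57 under quantile normalization and -0.43 under cyclic loess. Here the median over all genes was 0.05 and 0.01, compared with 0.14 for the values as deposited. The hnRNP median went from -0.81 to -0.36 and -0.16, and the SR protein median from -1.29 to -0.83 and -0.76. Under every limma setting tested 9 genes were lower: Srsf1, Srsf4, Srsf10, Sf3b1, Sf3b3, Sf3b6, Snrpa1, Hnrnpk and Hnrnph1 (Sf3b6 was removed by the filter on dim genes).

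**Figure D3:**
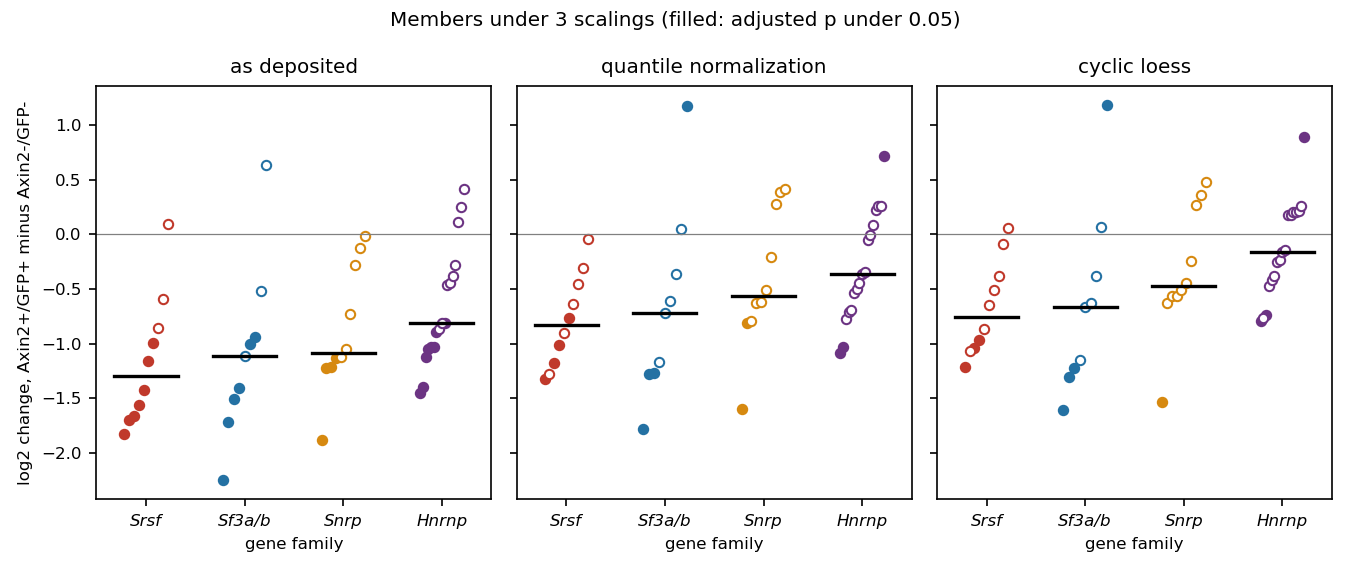
Log2 change, Axin2+/GFP+ minus Axin2-/GFP- (vertical axes), of each of the 46 genes by family for the values as deposited, under quantile normalization and under cyclic loess, with filled points for an adjusted p under 0.05 in limma and a bar at each family median. Filled points below 0 number 25, 11 and 9, and those above 0 in the panels of the other scalings are Sf3b4 and Hnrnpul2.

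The samples of a population were not equally close. The median log2 value over the 46 genes was 5.38, 5.41 and 5.66 in Axin2+/GFP+ samples and 6.58, 6.50 and 6.58 in Axin2-/GFP- samples. The SD within a group had a median over the genes of 0.35 in Axin2+/GFP+ and 0.17 in Axin2-/GFP- samples, compared with 0.26 and 0.19 over all genes. Axin2+/GFP+ replicate 1 was the lowest of its group for 23 of the 46 genes, beside 7594 of all 19938. Replicate 3 of that group was the highest for 19 of the 46, or 41.3%, beside 34.0% of all genes. The upper quartiles of the arrays were also unequal, at 3.72 to 3.76 in Axin2+/GFP+ and 3.97 to 4.0 in Axin2-/GFP- samples.

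The rest of the splicing machinery, with proteins linked to it, was read from lists of 195 measured genes, together called other splicing genes. Of these 67 were lower and 1 was higher (limma), with a median log2 change of -0.65. The median of their mean log2 values was 4.46, and among other genes 20.6% were lower at a mean of 3 to under 5 and 35.8% at 5 to under 7, beside 11.4% of all genes, most of which are dimmer. The count of lower genes was 42 without Axin2-/GFP- replicate 3, and the split was 30 lower and 5 higher under quantile normalization and 29 and 7 under cyclic loess. The list of SR-related proteins, kinases and importers had 16 of 25 genes lower. In it Clk1, a kinase that phosphorylates SR proteins, had log2 values of 6.36, 6.46 and 6.04 in Axin2+/GFP+ and 8.12, 8.33 and 8.26 in Axin2-/GFP- samples, a log2 change of -1.95 (limma adjusted p = 0.000426). Scaf11 changed by -2.21 (adjusted p = 0.000406) and Prpf4b, another such kinase, by -2.07 (adjusted p = 0.000851). All Axin2+/GFP+ samples were below all Axin2-/GFP- samples in these genes.

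Lists of spliceosome proteins and of Lsm proteins were lower in part. By list, the median of the mean log2 values ran from 3.69 to 4.88. Of other genes with a mean of 3 to under 5, 20.6% were lower, beside 11.4% of all genes. Of 18 tri-snRNP genes 6 were lower, with Prpf8, the protein at the catalytic centre, changed by -1.60 (limma adjusted p = 0.00108), Snu13, which binds a kink in the U4 RNA, by -2.97 (adjusted p = 0.00118) and Prpf3 by -0.86 (adjusted p = 0.0134, or 0.0555 without Axin2-/GFP- replicate 1). Of 16 branch site and 3′ splice site factors 6 were lower, among them Ddx42 (-1.20), the helicase gene Ddx39a (-2.12) and Rbm17 (-1.71). Of 26 Prp19 complex and catalytic step genes 10 were lower, among them Xab2 (-1.24), Cwc27 (-1.13) and Rbm22 (-1.26), the last of which was not called without any 1 Axin2-/GFP- sample (adjusted p 0.0607 to 0.0767). Of 15 U1-linked and minor spliceosome genes 5 were lower, led by Tia1 (-1.60), Luc7l3 (-1.27) and Tial1 (-1.36). The list of 14 Lsm genes is not limited to the spliceosome. In it 4 were lower, led by Lsm12 (-1.98), Lsm14a (-1.39) and Lsm6 (-1.13). Each of these values is a log2 change. None of these lists had a gene called higher by limma after adjustment. Without adjustment (p under 0.05) the Lsm list had 1 and the others 0.

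The remaining lists differed in how many genes were called. The median of the mean log2 values was 5.53 in the hnRNP-related list and 4.38 in the exon junction complex list. It was 3.40 in the SMN list and 3.38 in the list of tissue-regulated regulators. Among other genes 20.6% were lower at a mean of 3 to under 5 and 35.8% at 5 to under 7, beside 11.4% of all genes. Of 25 hnRNP-related genes under other symbols 10 were lower, led by Msi2, an RNA-binding regulator of translation (log2 change -2.22), Ptbp2, a repressor of neural exons (-1.53), and the nuclear matrix protein gene Matr3 (-1.68). Of 9 genes listed with the exon junction complex, not all of them its subunits, 3 were lower: Thoc2 (-2.0), Eif4a3 (-1.12) and Upf2 (-0.92). Upf2 lost its call without Axin2+/GFP+ replicate 2 (adjusted p 0.0534) and without Axin2-/GFP- replicate 1 (0.0819) or replicate 3 (0.0809). The SMN complex and methylosome, which load the Sm ring, had 1 of 13 genes lower, Strap (-1.10, limma adjusted p = 0.0160), whose adjusted p was 0.0664 without Axin2-/GFP- replicate 2 and 0.0620 without replicate 3, and 0 higher at either p. Among 34 tissue-regulated splicing regulators 6 were lower, led by Rbm38 (-1.86), Rbm39 (-1.44) and Rbm5 (-1.21), and the median log2 change was 0.22. Khdrbs2, a neural splicing regulator, was the one gene called higher, at low signal, with log2 values of 1.87, 2.10 and 1.81 against 1.25, 1.41 and 1.26 and a log2 change of 0.62 (limma adjusted p = 0.0400), which lost its call when any sample but Axin2+/GFP+ replicate 3 was left out (0.0567 to 0.125). The difference between lists was not tested.

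**Figure D4:**
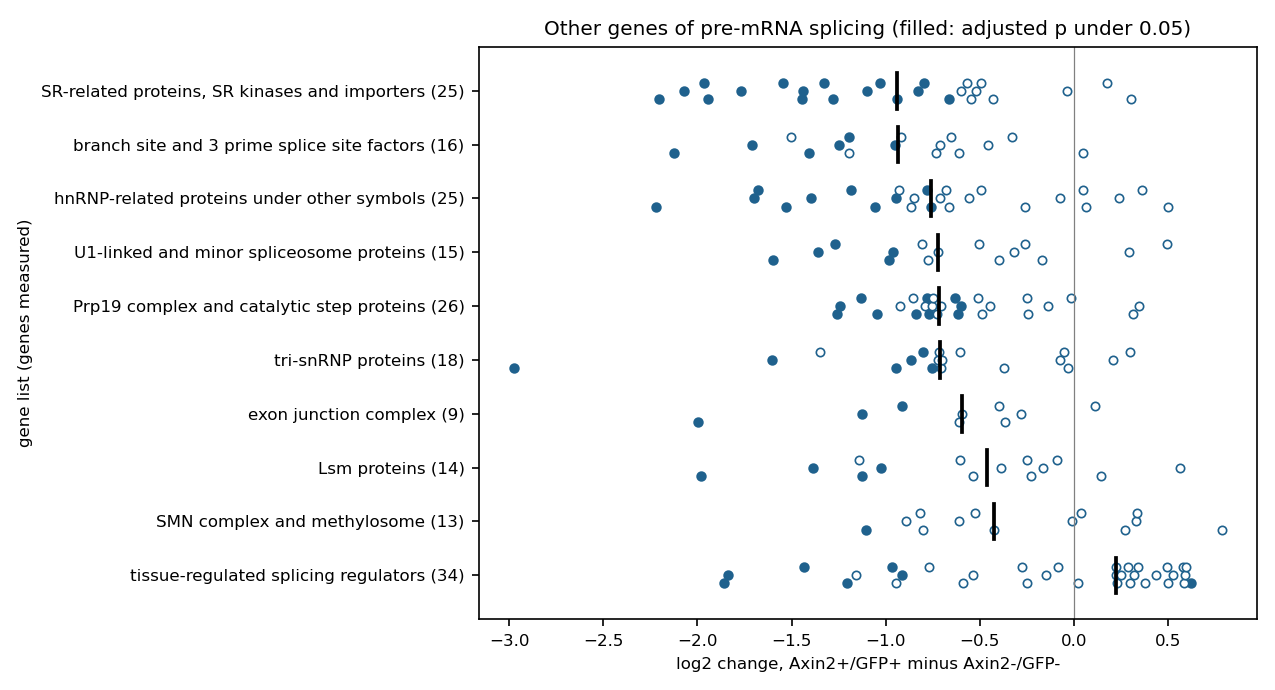
Log2 change, Axin2+/GFP+ minus Axin2-/GFP- (horizontal axis), of 195 other splicing genes by list (rows, with the number measured), with filled points for an adjusted p under 0.05 in limma and a bar at each list median. Of the filled points 67 lie below 0 and 1, Khdrbs2, lies above, and the bar of the tissue-regulated regulators is the one bar to the right of 0.

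Promoters are shown to set members that were called lower beside members that were not. RefSeq (GRCm38.p6) gave a promoter for 40 of the 46 genes, as the 300 bases from 250 before to 50 after the start, and 6 motifs were searched on both strands in this window. A gene listed with several starts counted as holding a motif if any of its windows did. CG pairs were counted in the first window only. None of the 6 contains another. The GC box (GGGCGG) stood in 72.5% of the members and in 49.2% of 17492 protein-coding genes. The ETS motif (CCGGAAG) stood in 37.5% and 12.9%, respectively. The CCAAT box (CCAAT) was found in 47.5% and 42.3%, the TATA box (TATAAA) in 15% and 14.8%, the YY1 motif (GATGGCGG) in 7.5% and 2.62%, and the NRF1 motif (GCGCATGC) in 5% and 3.94%. The median number of CG pairs in the window was 24.5 and 13. Among members, the GC box stood in 17 of 24 genes called lower and in 12 of 16 not called, and the ETS motif in 8 of 24 and 7 of 16. Matches of several motifs can lie side by side, and a match is a description and not a bound site.

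The 250 bases before the start are printed for Srsf1, Sf3b1, Snrpa1 and Hnrnpk, the members with the smallest p of each family, and for Snrpc, the member with the change nearest to 0, each on the strand of its gene with motif matches in capitals (GGGCGG read from the other strand appears as CCGCCC).
Srsf1 (chr11:88047123-88047372, plus strand): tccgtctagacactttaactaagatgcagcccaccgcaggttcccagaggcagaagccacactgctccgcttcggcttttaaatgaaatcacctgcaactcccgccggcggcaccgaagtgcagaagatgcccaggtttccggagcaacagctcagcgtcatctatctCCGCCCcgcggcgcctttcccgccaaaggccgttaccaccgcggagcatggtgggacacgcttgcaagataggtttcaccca
Sf3b1 (chr1:55027479-55027728, minus strand): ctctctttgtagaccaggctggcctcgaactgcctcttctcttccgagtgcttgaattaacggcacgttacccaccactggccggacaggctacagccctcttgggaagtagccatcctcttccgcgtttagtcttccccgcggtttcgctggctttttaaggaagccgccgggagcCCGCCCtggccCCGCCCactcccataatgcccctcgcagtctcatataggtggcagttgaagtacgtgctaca
Snrpa1 (chr7:66060086-66060335, plus strand): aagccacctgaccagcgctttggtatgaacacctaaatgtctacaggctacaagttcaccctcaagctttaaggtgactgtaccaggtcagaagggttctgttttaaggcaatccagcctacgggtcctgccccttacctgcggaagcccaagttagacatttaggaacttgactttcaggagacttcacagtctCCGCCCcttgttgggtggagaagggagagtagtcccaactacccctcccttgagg
Hnrnpk (chr13:58402118-58402367, minus strand): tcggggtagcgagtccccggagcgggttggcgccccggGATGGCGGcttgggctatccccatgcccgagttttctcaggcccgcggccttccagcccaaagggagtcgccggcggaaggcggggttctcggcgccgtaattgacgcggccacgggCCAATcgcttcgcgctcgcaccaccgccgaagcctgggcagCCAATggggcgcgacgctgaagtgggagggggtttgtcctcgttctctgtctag
Snrpc (chr17:27839837-27840086, plus strand): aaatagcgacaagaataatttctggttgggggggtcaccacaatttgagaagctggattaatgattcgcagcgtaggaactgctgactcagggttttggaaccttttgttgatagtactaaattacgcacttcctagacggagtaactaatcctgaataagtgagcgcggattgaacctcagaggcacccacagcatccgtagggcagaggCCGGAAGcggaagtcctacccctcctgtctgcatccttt
The Srsf1, Sf3b1 and Snrpa1 windows hold the GC box, that of Hnrnpk holds the CCAAT box and the YY1 motif, and that of Snrpc holds the ETS motif. Their CG pairs number 19 in Srsf1, 16 in Sf3b1, 4 in Snrpa1, 30 in Hnrnpk and 10 in Snrpc.

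Members of these families have near-identical processed copies in the genome, and 10 of the 46 genes had more than 1 feature with their symbol, so a feature can read RNA of more than 1 locus. How far this touched a value was not tested.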

How the data were processed

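RNA of 3 Axin2+/GFP+ and 3 Axin2-/GFP- samples was labelled for Affymetrix whole-transcript arrays. The authors deposited log2 values per array feature, and the tools listed in the submitters' processing notes are R 3.2.1 and RMA. The probe set level and the background step are not stated in the sources used here. RMA was not rerun, and the deposited values entered the tests unaltered.

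Of 35557 features, 21789 carried 1 gene symbol in the platform's probe table, 1621 carried several and 12147 are unnamed here. The latter groups were left out. A gene with several features was read by that with the highest mean over the 6 samples, which left 19938 genes. Tests used the lmFit and eBayes functions of limma 3.58.1 (R 4.3.3) without covariates, with Benjamini-Hochberg adjustment and a threshold of 0.05. The 3 samples of a group were labelled as biological replicates, and p-values measure the spread between them. The number of arrays limits the precision. The procedure was tested on simulated data.

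Named were, in each family, the 6 members with the smallest p, the member nearest to 0 and textbook members, and up to 3 genes per list with any called gene that went against its list. Members and lists were chosen with earlier results of these data known. Like-signal values used the 200 nearest other genes in mean log2 value. Alternatives included a limma trend, array weights, the methods' t-test, a block by replicate number, median centring, cyclic loess, quantile normalization, a filter at a mean log2 value of 4, the mean of a gene's features and leaving out each sample.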

Additional observations from a re-analysis of the deposited data

How the results depend on the processing

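The count of 25 lower members was 24 to 29 under limma with a trend, array weights, median centring, the dim filter and the mean of features, and a replicate block gave 27 (69 for other splicing genes). Of all 19938 genes 2125 to 2719 were lower under these settings, except the dim filter, with 1601 of 4242. Deviations of same-numbered samples from their group means correlated at only 0.03, 0.01 and 0.05. Every sample but Axin2+/GFP+ replicate 2 still correlated best with its own number. Values this small cannot show whether same-numbered samples came from the same mice. The methods' t-test with Benjamini-Hochberg adjustment gave 5 lower and 0 higher (at an unadjusted p, 29 lower and 1 higher), quantile normalization 11 and 2, and cyclic loess 9 and 2. Of all 19938 genes the adjusted t-test called 518 lower and 211 higher, and the unadjusted t-test 2747 and 2952. By family, in the order t-test, quantile and loess, Srsf had 3, 4 and 3 lower, Sf3 0, 3 and 3, Snrp 0, 2 and 1, and Hnrnp 2, 2 and 2, and the other splicing genes had 19, 30 and 29. The t-test estimates each gene's spread alone. Other splicing genes called higher numbered 2 under the trend, 9 at the unadjusted t-test p, 5 after quantile normalization, 7 after cyclic loess and 0 under the block, median centring or the dim filter.

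Median changes after quantile normalization and cyclic loess were -0.57 and -0.43 over all members, -0.83 and -0.76 for Srsf, -0.72 and -0.67 for Sf3, -0.57 and -0.48 for Snrp, and -0.36 and -0.16 for Hnrnp. The dim filter, which drops genes, gave Srsf -1.49.

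Leaving out each sample gave 16 to 26 lower members, 3 to 5 for Sf3, 2 to 5 for Snrp, 3 to 9 for Hnrnp, and 42 to 75 lower and 0 to 2 higher other splicing genes. In the same fits 1376 to 2082 of all 19938 genes were lower. Median changes ran from -1.06 to -0.87 over all members, -1.32 to -1.11 for Srsf, -1.42 to -0.79 for Sf3, -1.25 to -0.88 for Snrp and -0.89 to -0.48 for Hnrnp, and the difference from like-signal genes from -0.61 to -0.37.

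Turned signs all belonged to genes that were not called. After quantile normalization and cyclic loess the log2 change was 0.0852 and 0.262 for Hnrnpl, 0.0457 and 0.0670 for Sf3b2, 0.417 and 0.473 for Snrpa, 0.280 and 0.269 for Snrpb, 0.390 and 0.359 for Snrpc, and -0.0399 and -0.0885 for Srsf12. It was 0.0575 for Srsf5 after cyclic loess, -0.0108 for Srsf12 after median centring, 0.0283 for Snrpc with array weights and -0.45 for Sf3b4 over the mean of its features. Leaving out a sample gave -0.163 to 0.307 for Hnrnpa0, -0.386 to 0.0655 for Snrpa and -0.300 to 0.226 for Snrpc. The cause was not tested. With 3 arrays a group, changes of a log2 unit in genes of wide spread, such as Snrpd1 and Sf3a2, were not resolved.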
